A study of Mus musculus with 10 samples.

Results

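PVT2 neurons are one of 5 molecular subtypes that the study described in the mouse paraventricular thalamus (PVT), a nucleus that runs along the brain's midline. Their members were chosen here by a rule on single nuclei, since the deposited names stop at neuron clusters. Nuclei that the authors named neurons, with over 1000 genes detected, at least 2 transcripts of *C1ql3* and none of *Gad2* or *Nwd2*, were taken as PVT neurons, and these were 3684 of the 20503 nuclei in the series. Each was scored on 5 marker sets and given to the set with its highest z score. The set of *Col12a1*, *Pde3a*, *St14* and *Dgkk* selected 714 nuclei as PVT2 neurons. The same rule gave 905 nuclei to PVT1, 667 to PVT3, 715 to PVT4 and 683 to PVT5.

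The nuclei came from tissue punches of the PVT of C57BL/6J mice aged 12 weeks, with no genetic or drug treatment named for any group, and were sequenced as 10 droplet libraries. A first set held 4 libraries whose labels name no sex (the deposited metadata call them male), and a second set held 6 libraries labelled female; set, sex, sequencing depth and the gene annotation used for counting cannot be told apart. According to the methods a sample pooled the tissue of 4 mice, with 4 biological replicates in total, and the same pooling is assumed here for all 10 libraries. A library is thus the replicate, and the 5 subtypes of a library share their mice. Each count is a unique molecular identifier (UMI), a captured RNA molecule, and levels are given as CPM, the UMIs of a gene over all nuclei of one subtype in one library, scaled to a total of 1e+06. Libraries held between 875 and 7213 nuclei and between 5119927 and 55956635 UMIs, and 92 nuclei shared their barcode with a nucleus of another library, while no PVT neuron shared one with a PVT neuron of another library.

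Neurons of the PVT are excitatory projection neurons that reach the nucleus accumbens, the amygdala and the bed nucleus of the stria terminalis, and they are known for roles in arousal, motivation and stress. Subtypes of neurons often differ in what they place on their surface: adhesion molecules and guidance cues that set contacts, receptors that read modulators, and ion channels that shape firing. The 4 genes that define PVT2 neurons stand for several of these roles. *Col12a1* encodes a fibril-associated collagen, *Pde3a* a phosphodiesterase that breaks down cyclic AMP, *St14* the membrane serine protease matriptase and *Dgkk* a diacylglycerol kinase. On GRCm38 they are protein-coding genes at chr9:79598991-79718831 (*Col12a1*), chr6:141249269-141507448 (*Pde3a*), chr9:31089402-31131853 (*St14*) and chrX:6779306-6948363 (*Dgkk*).

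The members bore the marks of glutamatergic thalamic neurons. *Snap25*, a component of the machinery for vesicle fusion, stood at 875 ± 126 CPM in PVT2 neurons (SD, n = 10 libraries), against 875 ± 82.9 CPM in the other PVT neurons. *Slc17a6*, the vesicular glutamate transporter of the thalamus, stood at 534 ± 115 CPM. *Slc17a7*, the cortical form, stood at 2.25 ± 3.22 CPM, and *Gad1* and *Slc32a1* of GABA neurons had 9 UMIs and 1 UMI in all 714 nuclei. Markers of the neighbouring habenula and of a nearby group of GABA neurons were at or near 0 in PVT2 neurons (*Tac2* 28 UMIs, *Pou4f1* 3 UMIs, *Gpr101* 0 UMIs). *Adarb2*, which the study used for the mediodorsal thalamus, was not absent, at 86.4 ± 56.7 CPM in PVT2 and 74.5 ± 39.3 CPM in the other PVT neurons (log2 difference 0.42, edgeR adjusted p = 0.27). Since the rule had removed every nucleus with a *Gad2* or *Nwd2* transcript, the low levels of the GABA, habenular and *Gpr101* markers were in part set by the choice of nuclei.

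PVT2 neurons were present in every library. In the first set the libraries held 27, 21, 160 and 290 of them, which was 21.3%, 11.9%, 18% and 24.8% of their PVT neurons. In the female set their number had a lowest value of 21, a median of 29.5 and a highest of 82, and their share had 10.9%, 15% and 22.0%. The largest library by PVT2 nuclei, replicate 4 of the first set, had the highest share, with an exact binomial 95% interval from 22.3% to 27.3%. The lowest share, in female replicate 2, had an interval from 6.95% to 16%. The mean over libraries was 17.0 ± 4.80% (SD, n = 10). Shares of the female libraries, 15.7 ± 4.28%, overlapped with those of the first set, 19.0 ± 5.49%, and the difference of -3.24 percentage points had p = 0.333 in a two-sided exact permutation test over 210 arrangements. Without replicate 2 of the first set the difference was -5.61 points and without replicate 4 it was -1.31 points, the 2 ends of its range when 1 library was left out. It was 0.128 points among nuclei with a margin of at least 0.5 between their 2 highest z scores. Because the rule ranks nuclei by z scores over all of them, the share follows from the rule as well as from the tissue.

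**Figure D1:**
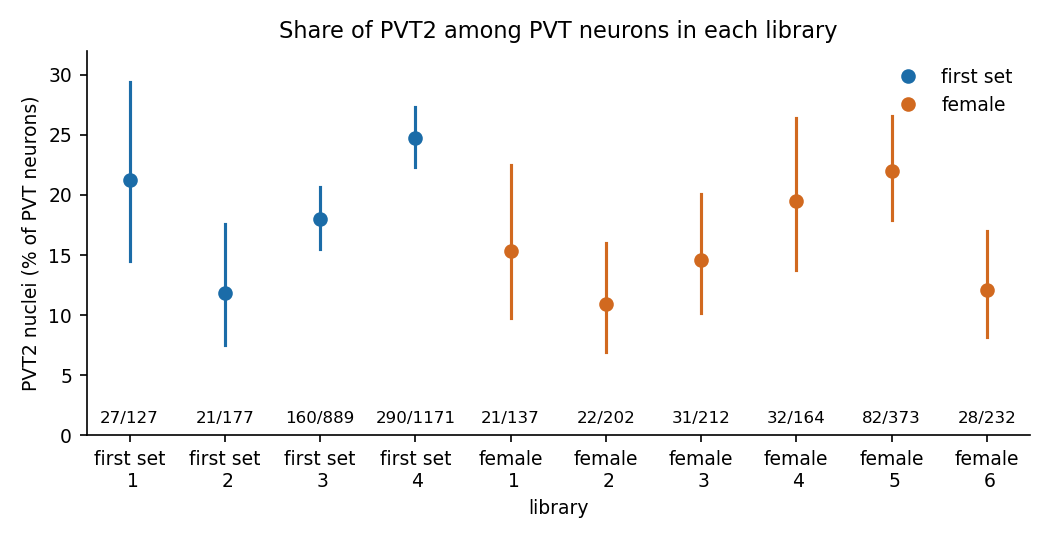
Share of PVT2 among PVT neurons (%) in each of the 10 libraries, as points with exact binomial 95% intervals that cover counting error alone, with the PVT2 nuclei over all PVT neurons printed at the foot. The shares run from 11.9% to 24.8% in the first set and from 10.9% to 22.0% in the female set, so that the sets overlap.

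PVT2 nuclei were about as deep as their neighbours. Their median was 23428, 14574, 16881.5 and 13097 UMIs per nucleus in the first set, and 6683.5, 7703.25 and 11248 UMIs as the lowest, median and highest of the female set. The log2 difference of the medians between PVT2 and the other PVT neurons was 0.06 ± 0.08 (SD, n = 10; p = 0.0605, two-sided exact sign-flip permutation test). In all 4 libraries of the first set the PVT2 median was the lower one, and in all 6 female libraries it was the higher one. Summed over nuclei, PVT2 neurons gave between 175304 and 4029650 UMIs per library, so that a count of 0, which allows up to 3 UMIs, sets a floor between 0.744 CPM in replicate 4 of the first set and 17.1 CPM in female replicate 1. In 5 of the 6 female libraries the floor lay between 11.97 and 17.1 CPM, and levels under it are poorly resolved there. Such floors and intervals cover counting error only.

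The marker genes are described here without a test, since they chose the members. *Col12a1* stood at 237 ± 65.1 CPM in PVT2 neurons, at 40.6 ± 15.1 CPM in PVT1, 33.2 ± 10.6 CPM in PVT5, 8.43 ± 5.50 CPM in PVT4 and 6.13 ± 4.68 CPM in PVT3. *Pde3a* was at 59.6 ± 27.8 CPM in PVT2 neurons, and *St14* and *Dgkk* were at 25.9 ± 14.4 and 22.0 ± 10.2 CPM. A single nucleus rarely showed the whole set. Of the 714 members, 613 (85.9%) held a *Col12a1* transcript, 289 (40.5%) one of *Pde3a*, 179 (25.1%) one of *St14* and 121 (16.9%) one of *Dgkk*. In 349 members 1 gene of the set was detected, in 252 there were 2, in 103 there were 3 and in 10 all 4. *Col12a1* was thus detected in most of the members. The markers of the other subtypes were low in PVT2 neurons but not absent: *Drd2*, the dopamine receptor of the PVT1 set, was at 20.05 ± 12.2 CPM against 48.6 ± 14.4 CPM in PVT1, and *Drd3* of the PVT5 set at 14.9 ± 7.20 against 121 ± 26.7 CPM in PVT5. *Glis3* and *Cadps2*, which lead the PVT3 set at 938 ± 125 and 997 ± 137 CPM there, were at 17.3 ± 13.5 and 8.74 ± 6.70 CPM in PVT2 neurons.

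At the edge of the rule the members ran into the other subtypes without a gap. The 3 members closest to the limit exceeded their next highest z score by 0.000517, 0.00228 and 0.0026, and the 3 nuclei closest to it on the outside fell short by -7.26e-06, -3.23e-05 and -0.00143. The median margin of the members was 1.09 in z, and 180 of them (25.2%) had a margin under 0.5. The next highest score was that of PVT4 in 272 members, PVT1 in 256, PVT5 in 137 and PVT3 in 49. All 254 PVT neurons without a transcript of any of the 19 markers fell to PVT4 by the arithmetic of the z scores and none to PVT2, so that PVT4 here holds unplaced nuclei.

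To compare detection at 1 depth, nuclei were thinned to 2000 UMIs, and *Col12a1* was then found in 38.9 ± 8.31% of PVT2 nuclei (SD, n = 10 libraries), in 3.48 ± 1.15% of the other PVT neurons and in 0.133 ± 0.343% of oligodendrocytes, which should lack it and serve as a measure of free RNA. Before thinning the shares were 82.8 ± 7.83% in PVT2 neurons and 1.18% in oligodendrocytes, at median depths of 12907.5 and 2759 UMIs in the nuclei deep enough to thin. *Pde3a* was found after thinning in 13.03 ± 12.1% of PVT2 nuclei, in 1.22 ± 1.18% of the other PVT neurons and in 1.43 ± 1.38% of oligodendrocytes. For *St14* the shares in PVT2 nuclei, the other PVT neurons and oligodendrocytes were 4.66 ± 4.38%, 0.371 ± 0.419% and 0.0252 ± 0.0797%. For *Dgkk* they were 4.64 ± 2.49%, 0.264 ± 0.304% and 0.692 ± 1.35%, so that its mean share in oligodendrocytes was above that in the other PVT neurons. The marker shares in PVT2 nuclei are set by the rule.

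Each marker was also left out in turn, the subtypes were chosen again by the remaining genes and the marker that had not been used was read. The 4 genes were picked together as PVT2 markers in the study's grouping of nuclei of this series, so that a shared pattern was already part of their choice and the values are given as a description with no p. All 4 markers were higher in the nuclei so chosen than in the other subtypes. *Col12a1* stood at 104, 79.0, 186 and 191 CPM in the first set, and at 69.4, 194 and 317.5 CPM as the lowest, median and highest of the female set, with a mean of 164 ± 77.8 CPM against 46.5 ± 18.8 CPM in the other PVT neurons. It was higher in 10 of 10 libraries (log2 fold change 2.24, SE 0.12). *Pde3a* was at 34.3 ± 16.8 against 11.3 ± 4.57 CPM, higher in 10 of 10 libraries (log2 fold change 1.70, SE 0.15). *St14* was at 22.4 ± 14.5 against 2.64 ± 0.931 CPM, again in 10 of 10 libraries (log2 fold change 3.63, SE 0.22). *Dgkk* was the least even of the set, higher in 7 of 10 libraries, at 12.2 ± 9.03 against 4.02 ± 3.15 CPM (log2 fold change 2.40, SE 0.27). The libraries that went the other way for *Dgkk* were replicate 1 of the first set and female replicates 2 and 4, and in female replicate 2 no UMI was counted, at a floor of 14.3 CPM. Without *Col12a1* the rule chose 529 nuclei, of which 421 (79.6%) were members, or 59.0% of all members. Without one of the other 3 genes it kept between 87.5% and 96.6% of the members.

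**Figure D2:**
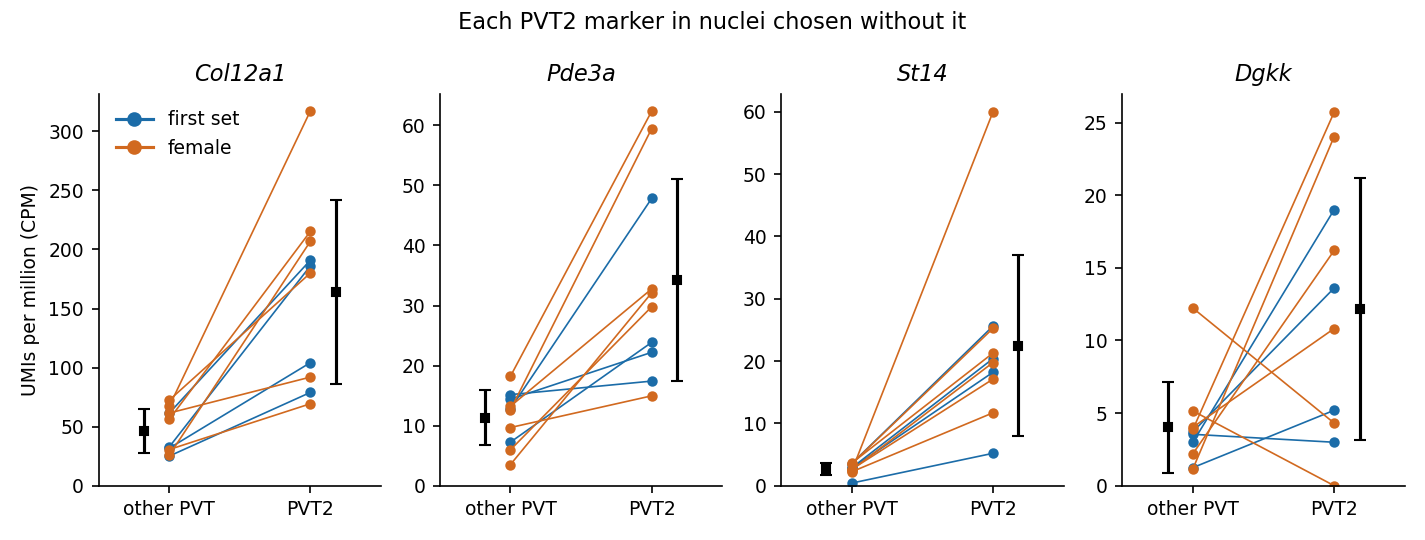
Levels (CPM, linear axes from 0) of each PVT2 marker in nuclei chosen by the rule without that marker, with 1 line per library from the other PVT neurons to PVT2 and black squares for mean ± SD over 10 libraries. *Col12a1*, *Pde3a* and *St14* go up in 10 of 10 libraries and *Dgkk* in 7 of 10.

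The authors' own clusters, made without this rule but on the same nuclei, placed most of the members in 1 cluster, which they shared with PVT1 and PVT5. Of the 714 PVT2 nuclei, 590 (82.6%) lay in the cluster named Neurons (1), 49 in Neurons (2), 40 in Neurons (8), 23 in Neurons (7) and 3 in Neurons (4). By library, 81.4 ± 6.12% of PVT2 nuclei were in Neurons (1), with a lowest value of 70.4%, against 45.8 ± 4.82% of the other PVT neurons. The same cluster held 76.9% of PVT1 nuclei and 59.2% of PVT5 nuclei, but 25.2% of PVT4 and 5.55% of PVT3 nuclei. Neurons (4) held 1.24 ± 2.05% of PVT2 nuclei and 20.8 ± 3.10% of the others. As both groupings read the same transcripts, these shares are a description.

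Beyond the markers, genes that go with PVT2 identity were sought by summing UMIs per library and subtype and comparing PVT2 with the mean of the other 4 subtypes in edgeR's quasi-likelihood test, with the library as a block. Genes of the rule were left out. A level in the other PVT neurons pools their nuclei, whereas a log2 fold change is taken against the mean of the 4 subtypes on the log scale, so that a small difference can have another sign on the 2 scales. The test asks which other genes are higher or lower in the summed nuclei that the 4 markers chose. Since the markers were taken from the study's own grouping of these nuclei, the calls are no separate evidence that the group exists. Of 8416 genes, 287 were higher (3.41%) and 222 lower (2.64%) when called at adjusted p below 0.05 with a difference beyond 0.5 on the log2 scale. Of those, 182 were higher and 108 lower in 10 of 10 libraries, where over all genes tested 4.11% lay above and 2.28% below in every library. The rule on names took the 20 genes with the largest differences among those of at least 10 CPM. The first of them were the channel gene *Trpm6*, the transporter gene *Slc44a5* and the guidance cue gene *Slit2*. The rule also asked for the same direction in at least 9 libraries, which largely fixes how even these genes are over libraries. In all 20 of these PVT2 was the highest of the 5 subtypes in at least 8 libraries, and in 11 of them in 10 of 10 libraries.

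*Slc44a5*, a member of the choline transporter-like family, was at 78.8, 107, 120 and 148 CPM in the first set and at 67.8, 104 and 114 CPM (lowest, median, highest) in the female set. The other PVT neurons lay between 19.7 and 43.6 CPM in all 10 libraries, so that the groups did not overlap (log2 fold change 2.39, SE 0.11, edgeR adjusted p = 8.6e-31). *Trpm6*, a cation channel fused to a kinase and known for magnesium transport, was at 43.8, 44.1, 56.0 and 56.1 CPM in the first set and at 33.3, 66.8 and 108 CPM in the female set. Its highest value in the other PVT neurons was 22.7 CPM, below every PVT2 library (log2 fold change 2.40, SE 0.13, edgeR adjusted p = 3.5e-26). *Slit2*, a secreted guidance cue read by Robo receptors, was at 30.6, 18.9, 30.2 and 63.8 CPM in the first set and at 17.1, 41.4 and 71.8 CPM in the female set. Other PVT neurons held at most 13.3 CPM of it (log2 fold change 2.30, SE 0.17, edgeR adjusted p = 1.6e-18). *Slit2* was higher in the PVT2 sums than in the other PVT neurons, though it was found in 13.7% of PVT2 nuclei. Neurons outside the PVT gate held more of it, at 113 CPM. That pool includes neurons that miss the gate by *C1ql3* alone, since at 1 or more transcripts 5116 nuclei pass instead of 3684. Likewise *Cdh8*, *Trpm3* and *Elmod1* were more abundant in neurons outside the gate, and the other 16 of the 20 genes were less abundant there than in PVT2 neurons.

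The stretches before the transcription starts of these 3 leading genes are shown because all 3 were higher in the summed PVT2 nuclei. Whether they occur together in single nuclei was not tested. They are the 100 bases before the RefSeq start on GRCm38.p6, written 5′ to 3′ on the gene's strand (plus for all 3), with capitals for the TATA box motif TATAAA.
*Slit2* (chr5:47983055-47983154): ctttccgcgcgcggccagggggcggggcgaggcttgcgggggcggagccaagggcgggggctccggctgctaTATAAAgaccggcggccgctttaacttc
*Slc44a5* (chr3:153973336-153973435): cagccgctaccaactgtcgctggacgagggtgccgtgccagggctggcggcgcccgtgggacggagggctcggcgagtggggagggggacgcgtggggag
*Trpm6* (chr19:18749630-18749729): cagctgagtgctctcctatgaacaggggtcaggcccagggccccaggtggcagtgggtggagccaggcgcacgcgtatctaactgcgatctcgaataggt
*Slit2* holds TATAAA from base -28 relative to the start, and the other 2 do not. Searched on both strands, TATAAA occurs in the same window of 5.95% of 27025 genes with a promoter in the table and in 2.35% of 213 genes called higher in PVT2 neurons. The nuclear receptor half-site AGGTCA, searched in the same way, occurs in 5.77% and 3.76%, and in none of the 3 windows. GC content was 72% for *Slit2*, 76% for *Slc44a5* and 62% for *Trpm6*, against a median of 55% over all genes. A match of letters is a description and not a binding site.

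Among the remaining leading genes, 3 are known for work on proteoglycans, the sugar-bearing proteins of the cell surface, a grouping made after their values were seen and not read as a list. *Gpc5*, a glypican, was at 1234 ± 369 CPM in PVT2 and 346 ± 71.7 CPM in the other PVT neurons (log2 fold change 1.93, SE 0.08). Its PVT2 values ran from 674 to 1763 CPM and those of the others from 237 to 509 CPM, without overlap. *Gpc6*, a second glypican, was at 1449 ± 201 against 664 ± 99.3 CPM (log2 fold change 1.497, SE 0.06). *Xylt1*, the xylosyltransferase that starts the sugar chains, was at 85.6 ± 26.4 against 27.8 ± 7.16 CPM (log2 fold change 1.97, SE 0.08). *Sulf2*, which trims sulfate from such chains, was among the genes with lower levels, at 1.87 ± 2.53 against 12.0 ± 4.84 CPM (log2 fold change -2.15, SE 0.35, edgeR adjusted p = 8.1e-07), and much of its PVT2 level lies under the floor. The cytoskeletal genes *Shroom3* and *Utrn* (utrophin) had log2 fold changes of 1.58 and 1.66, the protease *Tll1* and the Arf regulator *Elmod1* each had 1.58, and *Crybg1* had 1.57. *Elmod1* was the 1 gene of the 20 that went the other way in a library, being lower in 1 of 10.

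**Figure D3:**
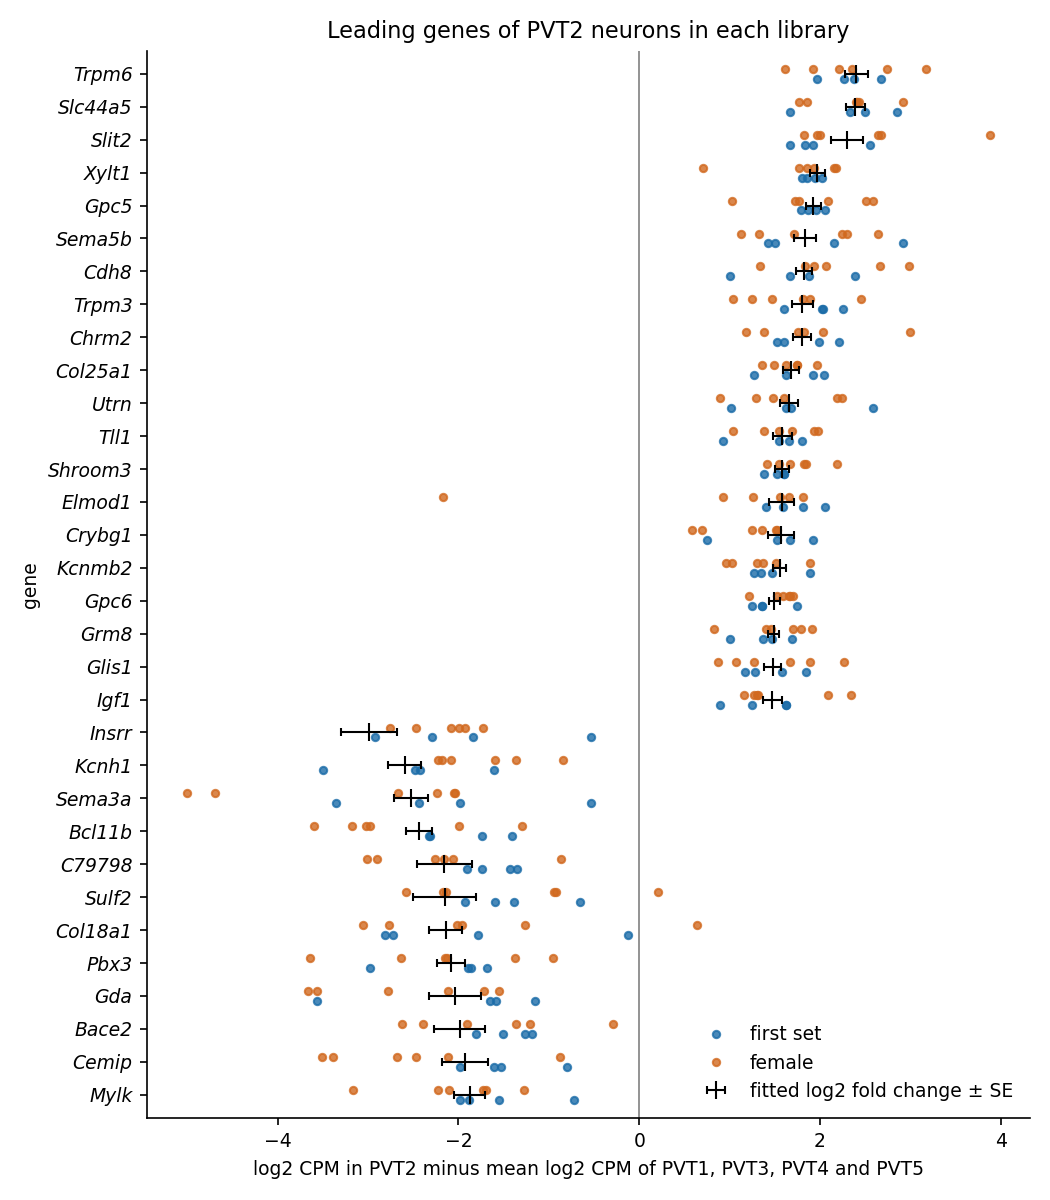
Difference in log2 CPM between PVT2 and the mean of the other 4 subtypes for the 20 leading higher and 12 leading lower genes, with 1 point per library coloured by set and black bars for edgeR's log2 fold change ± SE. Of the 20 higher genes 19 lie above 0 in 10 of 10 libraries, and of the 12 lower genes 10 lie below 0 in 10 of 10, where the choice of genes asked for at least 9. Some lower genes had 0 UMIs in PVT2 nuclei of some libraries, where their points are poorly resolved.

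The genes lower in PVT2 neurons were led by a receptor, a potassium channel, a guidance cue and transcription factors, and all 12 that are named were more abundant in PVT3 and in PVT4. *Insrr*, the insulin receptor-related receptor, had 13 UMIs in all PVT2 nuclei, at 1.03 ± 1.98 CPM against 14.1 ± 3.15 CPM in the other PVT neurons (log2 fold change -2.99, SE 0.31, edgeR adjusted p = 6.4e-13). *Kcnh1*, a voltage-gated potassium channel, was at 2.92, 9.45, 6.53 and 6.20 CPM in the first set and at 3.99, 9.10 and 24.6 CPM in the female set, against 28.4 to 59.0 CPM in the others (log2 fold change -2.59, SE 0.18, edgeR adjusted p = 2.6e-20). *Sema3a*, a secreted guidance cue, was at 7.99 ± 8.20 against 53.9 ± 11.8 CPM (log2 fold change -2.53, SE 0.19). No PVT2 library reached the lowest value of the other PVT neurons for *Kcnh1* or *Sema3a*. *Bcl11b*, a zinc finger transcription factor, was at 12.4 ± 7.32 against 83.1 ± 13.2 CPM, and *Pbx3*, a homeodomain factor, at 24.6 ± 13.9 against 175 ± 35.0 CPM. In PVT3 the level of *Pbx3* was 523 CPM, followed by PVT4 with 147 CPM, PVT5 with 59.6 CPM and PVT1 with 30.3 CPM, and the difference between PVT2 and PVT1 did not pass the test (log2 difference -0.36, SE 0.21, edgeR adjusted p = 0.50). *C79798* (annotated as antisense, and lying within *Pbx3* on the opposite strand), *Col18a1*, *Gda*, *Bace2*, *Cemip* and *Mylk* complete the 12, with log2 fold changes from -1.88 to -2.16. In several female libraries *C79798*, *Gda*, *Bace2* and *Cemip* had 0 UMIs in PVT2 nuclei, and their drop is poorly resolved there. In female replicate 1 the floor of 17.1 CPM lay above the other PVT neurons for *Gda* (9.45 CPM), *Bace2* (7.09 CPM) and *Cemip* (16.5 CPM).

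Across the subtypes PVT2 stood nearest to PVT1 by the number of called genes. Against PVT1, 134 genes were higher (1.59%) and 93 lower (1.11%). Against PVT5, 203 were higher (2.41%) and 168 lower (2.00%). PVT4 gave 352 higher (4.18%) and 312 lower (3.71%), and PVT3 703 higher (8.35%) and 640 lower (7.60%). This order, from fewest to most, was the same in all 24 settings of the analysis. PVT1 was the largest of the groups by nuclei and PVT3 the smallest. Of the 287 genes higher than the mean of the others, 90 were called against PVT1 alone as well, 165 against PVT5, and 55 against each of the 4 subtypes. Among the 20 leading genes 17 were called against each of the 4, and the exceptions, *Tll1*, *Shroom3* and *Igf1*, missed the threshold against PVT1 with log2 differences of 0.31, 0.40 and 0.44. Of the 12 leading lower genes 12 were lower than in PVT3 and 12 lower than in PVT4, 10 lower than in PVT5 and 6 lower than in PVT1.

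**Figure D4:**
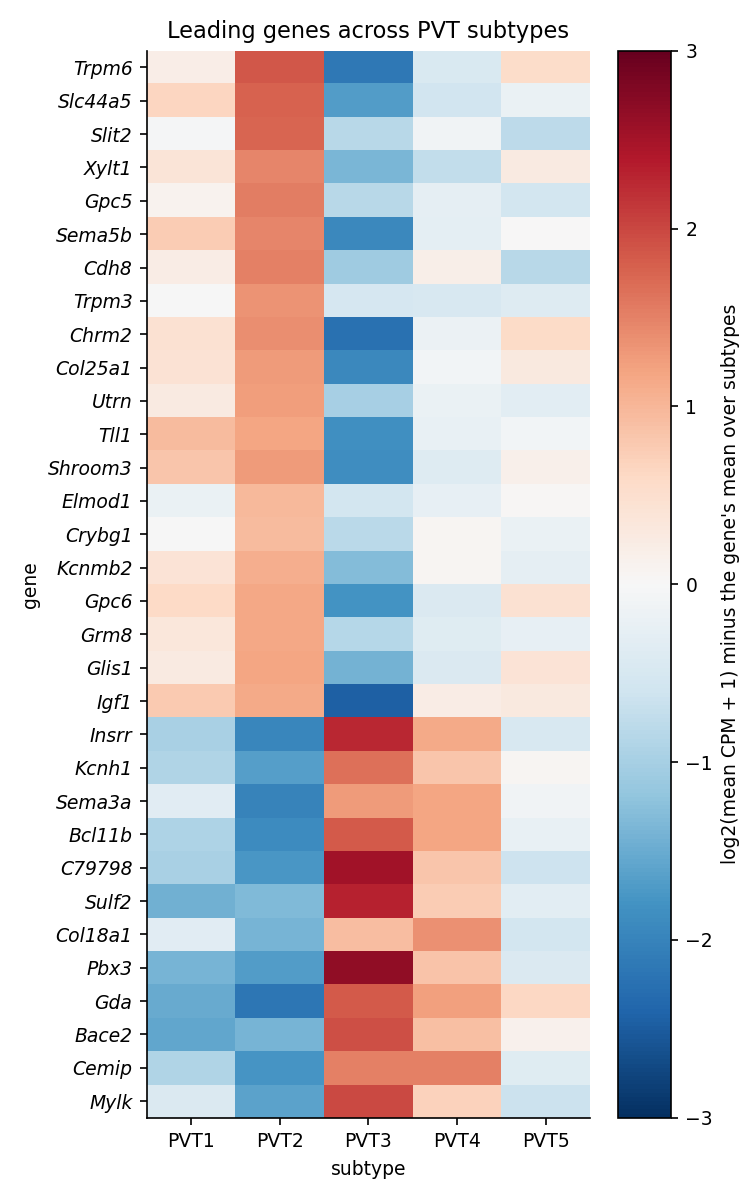
Levels of the 20 leading higher and 12 leading lower genes in the 5 subtypes, as log2(mean CPM + 1) minus each gene's mean over the subtypes (pseudocount 1, mean over 10 libraries). By mean CPM the 20 upper genes are highest in PVT2 and lowest in PVT3, and the 12 lower ones are above PVT2 in both PVT3 and PVT4.

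What separated PVT2 from PVT1, its nearest neighbour, was a short list. The largest differences upward were those of *Slit2* (log2 difference 1.99, SE 0.22), *Adam12* (1.89, SE 0.27), *Nhs* (1.83, SE 0.19), *Pdzd2* (1.66, SE 0.19, higher in 9 of 10 libraries) and *Trpm6* (1.59, SE 0.15), with edgeR adjusted p between 1.1e-13 and 9.6e-08. *Adam12*, a membrane metalloprotease, was at 19.8 ± 9.42 CPM in PVT2 and 6.89 CPM in PVT1, higher in 10 of 10 libraries, yet it was most abundant in PVT3 at 47.5 CPM and its difference from the mean of the others did not pass the test (log2 fold change 0.47, edgeR adjusted p = 0.058). *Nhs*, an actin remodelling gene, was at 43.0 ± 12.5 CPM in PVT2 and 10.1 CPM in PVT1, higher in 10 of 10 libraries. The largest differences downward were those of *Sema3a* (-1.68, SE 0.23), *Gfra1* (-1.48, SE 0.14), *Col18a1* (-1.43, SE 0.23), *Unc13c* (-1.36, SE 0.17) and *Kcnh1* (-1.16, SE 0.25). *Gfra1*, the receptor for the growth factor GDNF, was at 19.7 ± 5.15 CPM in PVT2 and 57.0 CPM in PVT1, lower in 10 of 10 libraries. From PVT5, PVT2 differed upward by *Slit2* (log2 difference 2.78, SE 0.26), *Cdh8* (2.31, SE 0.13), *Slc44a5* (2.14, SE 0.14), *Gpc5* (2.11, SE 0.12) and *Cpa6* (1.84, SE 0.19). Downward it differed, among others, by *Gda* (-2.12, SE 0.32), *Kcnh1* (-2.05, SE 0.23), *Sema3a* (-1.90, SE 0.23) and *Bcl11b* (-1.70, SE 0.19).

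Gene families were read from lists set by symbol patterns, and their counts stand beside those over all 8416 genes tested, of which 3.41% were higher and 2.64% lower, with a median log2 fold change of -0.00309. By these lists, chosen with earlier results known, the share called higher ran from 0% (sodium channels, GABA-A and glycine receptors) to 33.3% (collagens and matrix, TRP and Piezo channels, amine and acetylcholine receptors), and the share called lower from 0% (sodium channels, immediate early genes) to 25.9% (collagens and matrix). Most of the lists held called genes in both directions. Of 39 tested axon guidance genes 10 were higher and 5 lower, with a median log2 fold change of -0.01. The higher ones included the ligands *Slit2*, *Sema5b* (1.84, SE 0.12), *Sema6d* (1.31) and *Sema3e* (1.18), and the ephrin receptors *Epha6* (1.41), *Epha7* (1.01), *Epha1* (0.92) and *Epha3* (0.63). Lower were *Sema3a*, *Nrp2* (-1.75, SE 0.19), a receptor subunit for secreted semaphorins, *Unc5c* (-0.73), a netrin receptor, *Efnb3* (-0.86) and *Ephb6* (-0.52). PVT2 neurons thus held less of both *Sema3a* and *Nrp2*, but more of the ligand *Sema3e*, than the mean of the other subtypes.

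Among 27 tested collagen and matrix genes 9 were higher and 7 lower (median log2 fold change 0.09). Apart from *Col12a1*, which is in the rule, the collagens *Col25a1* (825 ± 185 against 333 ± 62.1 CPM, log2 fold change 1.68, SE 0.09) and *Col8a1* (1.46, SE 0.13) were higher and *Col18a1* was lower (-2.14, SE 0.18). The matrix protein *Spon1* was lower in 10 of 10 libraries (-1.12, SE 0.12). Of 18 tested cadherins and protocadherins 4 were higher and 1 was lower (median 0.29). *Cdh8* was at 283, 170, 358 and 425 CPM in the first set and at 187, 335 and 447 CPM in the female set, above the highest value of the other PVT neurons, 154 CPM, in 10 of 10 libraries (log2 fold change 1.83, SE 0.09). *Cdh11* (0.87) and *Pcdh19* (0.86) were also higher, and *Pcdh15* was lower (-1.10, SE 0.09). *Cdh11* was at 160 ± 41.6 CPM in PVT2 and 175 CPM in PVT1, a difference that did not pass the test. Of 36 synaptic organizers 5 were called: the 4 higher ones included *Lypd6* (1.46, SE 0.10), a modulator of nicotinic receptors, *Clstn2* (0.86) and *Nrxn3* (0.79), and the lower one was *Lrrtm4*, at 1305 ± 420 against 2724 ± 319 CPM (-1.05, SE 0.06; median of the list 0.14).

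**Figure D5:**
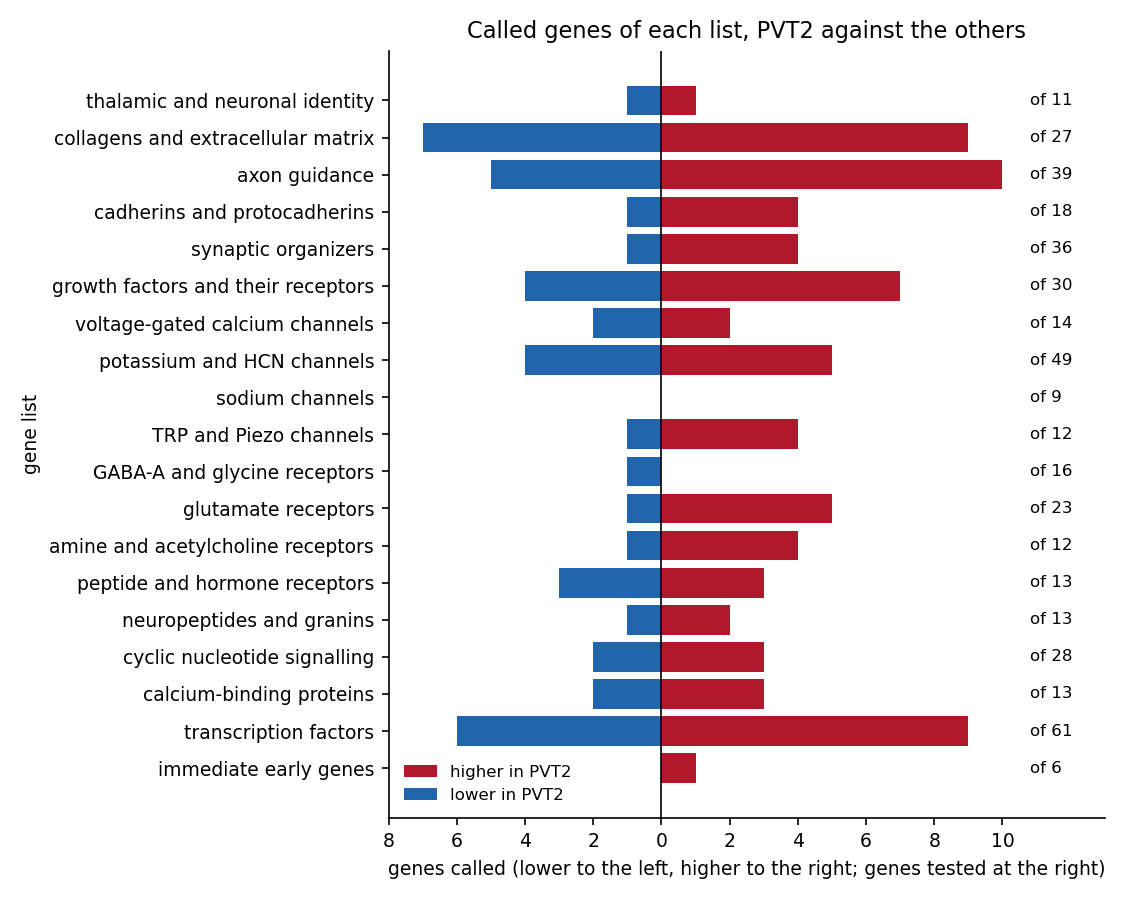
Number of genes called higher (red, to the right of 0) or lower (blue, to the left) in PVT2 against the mean of the other subtypes in each gene list, with the number of genes tested at the right. Axon guidance has 10 higher and 5 lower of 39, and sodium channels none of 9.

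Receptors for transmitters and modulators held called genes in both directions. Of 12 tested amine and acetylcholine receptors 4 were higher and 1 was lower (median log2 fold change 0.39). *Chrm2*, a muscarinic receptor that inhibits through Gi proteins, was at 219, 104, 226 and 270 CPM in the first set and at 125, 210 and 314 CPM in the female set. In the other PVT neurons it ran from 36.6 to 116 CPM, so that 1 PVT2 library lay within their range, while within each library PVT2 was the highest subtype (log2 fold change 1.80, SE 0.10, edgeR adjusted p = 1.9e-24). *Chrna7* (1.10, SE 0.12), *Chrm3* (0.60) and *Htr1f* (0.99, SE 0.16) were also higher, and the serotonin receptor *Htr1d* was lower (-1.49, SE 0.19). Of 23 glutamate receptors 5 were higher and 1 was lower (median 0.12). Among the higher ones were the metabotropic receptors *Grm8* (867 ± 186 against 345 ± 51.2 CPM, log2 fold change 1.49, SE 0.06), *Grm4* (0.65) and *Grm5* (0.61) and the kainate subunit *Grik1* (0.64), and the lower one was *Grik4* (-0.69). Of 13 peptide and hormone receptors 3 were higher and 3 lower (median 0.09). *Prlr*, the prolactin receptor, was at 87.2 ± 24.9 against 50.4 ± 11.1 CPM (1.17, SE 0.09), and *Tacr3* and *Galr1*, receptors for tachykinins and galanin, had 1.03 and 0.84. *Insrr*, *Hcrtr2* (-0.90, SE 0.15) and *Vipr2* (-0.56) were lower, and *Hcrtr2*, an orexin receptor, was at 23.2 ± 13.3 against 49.0 ± 9.37 CPM. The opioid receptors did not pass both thresholds: *Oprm1* had 257 ± 41.4 against 264 ± 24.4 CPM (log2 fold change 0.09 relative to the 4 subtypes averaged, of the other sign than the pooled levels; edgeR adjusted p = 0.33) and *Oprk1* 63.4 ± 19.1 against 55.9 ± 10.2 CPM (0.22, edgeR adjusted p = 0.047). *Npffr1*, *Hcrtr1* and *Drd1* fell under the filter on low counts, with means of 0.980, 2.57 and 2.79 CPM in PVT2 neurons. Of 16 GABA-A and glycine receptor genes 1 was called, *Gabrg1*, which was lower (-0.58).

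TRP, potassium and calcium channels held called genes in both directions, and sodium channels held none. Of 12 tested TRP and Piezo channels 4 were higher and 1 was lower (median 0.18). Besides *Trpm6*, the higher ones included *Trpm3*, at 819 ± 264 against 261 ± 68.4 CPM (log2 fold change 1.81, SE 0.11), and *Trpc6* (1.35, SE 0.14), and *Trpc5* was lower (-0.83, SE 0.07). Of 49 potassium and HCN channel genes 5 were higher and 4 lower (median 0.11). These counts include *Kcnip2*, *Kcnip3* and *Kcnip4*, which are also counted among the calcium-binding proteins below. *Kcnmb2*, an accessory subunit of calcium-activated potassium channels, was at 149 ± 31.1 against 64.5 ± 8.50 CPM (1.56, SE 0.07), and *Kcnab1*, an accessory subunit of voltage-gated ones, at 396 ± 70.3 against 176 ± 34.7 CPM (1.44, SE 0.07). *Kcnj5* (-1.02, SE 0.13) and *Kcnk10* (-0.68, SE 0.07) were lower. Of 14 voltage-gated calcium channel genes 2 were higher and 2 lower (median 0.14). *Cacna1i*, which encodes a T-type channel used in thalamic burst firing, was at 55.4, 41.0, 52.5 and 55.3 CPM in the first set and at 35.9, 45.7 and 54.1 CPM in the female set, against 27.9 ± 5.43 CPM in the other PVT neurons (log2 fold change 0.94, SE 0.11, higher in 10 of 10 libraries). *Cacna1h*, another T-type channel, was at 1.79 ± 2.24 CPM and below the filter. *Cacna1e* (-0.84, SE 0.05) and *Cacna2d2* (-0.56) were lower and *Cacnb4* was higher (0.55). Of 9 sodium channel genes 0 were called by edgeR or DESeq2 (median 0.18), although 6 had an unadjusted p under 0.05, with *Scn1a* the farthest from 0 at a log2 fold change of 0.31.

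Calcium-binding proteins, often used to sort thalamic neurons, gave 3 higher and 2 lower of 13 tested (median -0.20). *Calb1* (calbindin) was at 80.2, 132, 101 and 91.6 CPM in the first set and at 69.01, 92.1 and 148 CPM in the female set. The other PVT neurons held at most 68.97 CPM and the lowest PVT2 library 69.01 CPM, so that the groups came close but did not overlap, and within libraries PVT2 was above the others in 10 of 10 (log2 fold change 0.93, SE 0.09, edgeR adjusted p = 1.5e-13). *Calb2* (calretinin) was at 161 ± 67.6 against 167 ± 45.1 CPM, with a log2 fold change of 0.01 relative to the 4 subtypes averaged (SE 0.06, edgeR adjusted p = 0.98). *Pvalb* (parvalbumin) had 6 UMIs in all members. *Kcnip4* (0.59) and *Kcnip3* (0.57) were higher, and *Hpcal1* (-1.50, SE 0.22) and *Kcnip2* (-0.61) lower. Of 13 neuropeptide and granin genes 2 were higher, *Cck* (1.04, SE 0.10, at 126 ± 59.8 against 71.7 ± 30.9 CPM) and *Pcsk2* (0.52), and *Vgf* was lower (-0.70; median of the list 0.04). Of 30 growth factor and receptor genes 7 were higher and 4 lower (median 0.06), with *Igf1* at 68.5 ± 20.3 against 35.3 ± 10.4 CPM (1.47, SE 0.11), *Igfbp7* at 127 ± 31.7 against 61.5 ± 9.82 CPM (1.43, SE 0.10) and *Bmp6* (0.97). Of 28 cyclic nucleotide genes 3 were higher, *Adcy2* (1.24, SE 0.12), *Gucy1a1* (1.03) and *Pde7b* (0.70), and 2 were lower, *Pde2a* (-1.93, SE 0.15) and *Pde9a* (-0.63; median of the list 0.08). The difference in *Pde2a* rests on the first set, with 6.30 to 10.6 CPM in PVT2 and 31.4 to 50.3 CPM in the other PVT neurons, since in female libraries it was at 0 UMIs in PVT2 and at most 1.14 CPM in the others. *Adcy2*, an adenylyl cyclase, was at 109 CPM in PVT5 and at 85.1 ± 23.9 CPM in PVT2 (log2 difference -0.18, SE 0.13).

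Of 61 tested transcription factors 9 were higher and 6 lower (median 0.03). Higher were *Glis1*, a zinc finger factor (92.1 ± 25.8 against 37.6 ± 7.13 CPM, log2 fold change 1.48, SE 0.09), *Lef1* (1.22, SE 0.13), an effector of Wnt signalling, the nuclear receptors *Nr2f1* (1.08), *Rarb* (0.72) and *Thrb* (0.62), and *Tshz3*, *Etv1*, *Npas3* and *Nfia* (0.73, 0.68, 0.66 and 0.57). The lower ones included *Bcl11b* (-2.44, SE 0.15), *Pbx3* (-2.09, SE 0.15), *Sox11* (-0.84), *Foxp1* (-0.61) and *Bcl11a* (-0.53). *Glis1* and *Glis3* belong to 1 family; *Glis3* is in the rule as a PVT3 marker, and its low level in PVT2 neurons is no finding. Immediate early genes, whose transcripts report recent activity, did not differ by the test as a sum. Their summed level was 299 ± 97.4 CPM in PVT2 and 282 ± 63.3 CPM in the other PVT neurons, with a log2 difference of 0.03 ± 0.40 (n = 10, higher in 6 of 10 libraries; p = 0.809, two-sided exact sign-flip permutation test). Of the 6 tested singly 1 was called, *Npas4* (0.55, SE 0.16, edgeR adjusted p = 0.0090), and that call was lost in DESeq2 (0.59, adjusted p = 0.064), without replicate 4 of the first set (0.57, edgeR adjusted p = 0.057) and without female replicate 5 (0.43, edgeR adjusted p = 0.066).

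Transcripts of other cell types were low, and for most types their sums were not higher in PVT2 neurons. The 6 oligodendrocyte markers summed to 92.1 ± 36.4 CPM in PVT2 and 107 ± 22.3 CPM in the other PVT neurons, 52.6% of it *Mbp*, against 22531 CPM in oligodendrocytes. The 5 astrocyte markers summed to 38.6 ± 33.6 against 48.2 ± 22.2 CPM and the 3 microglia markers to 70.3 ± 25.1 against 79.1 ± 24.7 CPM, the latter being 79.8% *P2ry12*. Sums for oligodendrocyte precursors (1.31 ± 2.07 against 1.498 ± 0.824 CPM), endothelial cells (0.171 ± 0.459 against 1.04 ± 0.909 CPM) and ependymal cells (8.84 ± 9.02 against 15.2 ± 13.5 CPM) were also no higher in PVT2 neurons. Of the 23 genes on the lists of other cell types 5 passed the filter and 0 were called by edgeR or DESeq2, and 1 of the 5, *Mbp*, had an unadjusted p under 0.05, with a log2 fold change of -0.21. The fibroblast markers were the exception, with 13.8 ± 8.82 against 4.52 ± 2.36 CPM, higher in 9 of 10 libraries. They stood at 4.38, 25.2, 8.24 and 9.18 CPM in PVT2 neurons of the first set and at 7.98, 10.9 and 28.5 CPM (lowest, median, highest) in the female set. Of that sum 98.0% was *Cped1* (100 UMIs), the gene by which the study named fibroblasts, while *Dcn* had 0 and *Col1a2* 2 UMIs. *Cped1* had 155 UMIs in the other PVT neurons and fell under the filter, and its part in other results was not tested.

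Finally, the 2 sets of libraries were compared for how PVT2 differed from its neighbours. No gene of 8416 (0%) had a PVT2 difference that differed between the female and the first set in edgeR (smallest adjusted p = 0.715), and 462 genes (5.49%) had an unadjusted p under 0.05. DESeq2 called 4 genes, named here after their values were seen: *Grin2a* (female minus first set 0.41 on the log2 scale, SE 0.11), *Plxna4* (0.27, SE 0.08), *Macrod2* (0.23, SE 0.06) and *Ndfip1* (-0.32, SE 0.09), with adjusted p from 0.042 to 0.044. Read in each set on its own, 269 genes of 6690 tested (4.02%) were higher in the 6 female libraries and 451 of 12509 (3.61%) in the 4 libraries of the first set, and 212 and 259 of these, in that order, were among the 287. Of the 287 genes 10 had no UMI in the PVT neurons of one set, and no such gene is named above. Over all nuclei 1555 symbols with at least 50 UMIs in the first set had 0 UMIs in the female set, and 509 the other way around, so that a gene's absence from a set can be its annotation.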

How the data were processed

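Nuclei of the PVT were profiled with 10x Genomics 3′ libraries, and the authors deposited UMI counts per gene and nucleus, unnormalised, after alignment with Cell Ranger to mm10. The submitters' processing notes name Cell Ranger 6.1.1 and the study's methods an earlier version, without saying which libraries each was used for. Nuclei under 200 genes, or over 5% mitochondrial UMIs by the percent values that the authors deposited, had been left out, as had clusters called doublets; no doublet caller was run here. Cluster names were the authors', and 21 other metadata columns were not used.

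For the rule, UMIs were scaled to 10000 per nucleus, log-transformed, averaged over each marker set and converted to z scores. The members and gene lists were chosen with earlier results of these data known. UMIs were summed per library and subtype (at least 10 nuclei per sum) and fitted in edgeR 4.0.16 (limma 3.58.1, R 4.3.3) with TMM factors, filterByExpr, the library as a block and Benjamini-Hochberg adjusted p over 8416 genes. *St14* and *Dgkk* fell under the filter and were kept for their own reading. The library is the block because its subtypes share their mice. Genes were named by rank (20 higher, 12 lower, at least 10 CPM, at least 20 UMIs in each set, the same direction in at least 9 libraries), up to 4 called genes per list, the 5 most different from PVT1 and PVT5 in each direction, and genes of the study's text. Other called members of the lists were named after their values were seen, and some genes the rule took are not reported here. DESeq2 1.42.0 was an alternative, and the fits were tested on simulated counts. Shares and exact tests were computed with Python 3.11.15, numpy 2.4.6, pandas 2.3.3 and scipy 1.17.1. Gene positions are from GENCODE and promoters from RefSeq (17 of the 20 leading genes matched). The p-values of the exact tests measure the spread between libraries of pooled mice. Those of edgeR rest on the spread of the sums of all 5 subtypes around their library and subtype levels, with information shared across genes. They are thus not tests of 10 PVT2 differences alone.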

Additional observations from a re-analysis of the deposited data

Results flagged for a closer look

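In 90 groups of PVT2 values, 8 had a library far from the rest of its group. Chance gives about 1 in 20, or 4.5, for values that are not tied at 0. A group held the 4 libraries of the first set or the 6 female libraries. Its values were the level of a named gene, the PVT2 share, or the depth or immediate early gene difference. Replicate 2 of the first set, with 21 PVT2 nuclei, was the low one for *Adam12* (9.453 CPM, group median 22.8), *Crybg1* (9.453 CPM, group median 30.2) and *Pdzd2* (3.151 CPM, group median 28.1). Both *Adam12* and *Crybg1* stood there at 3 UMIs. Female replicate 1, also with 21 PVT2 nuclei, was the high one for *Sema5b* (159.7 CPM, group median 76.9) and *Trpm3* (1244 CPM, group median 654). *Adam12* was high in female replicate 6 (41.62 CPM, group median 15.7). *C79798* in female replicate 3 (8.326 CPM) and *Insrr* in female replicate 5 (0.9585 CPM) were the only libraries of the female set with any UMI of the gene in PVT2 nuclei.

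The depth of PVT2 nuclei relative to their neighbours differed between the sets. The log2 difference in median UMIs was 0.11 ± 0.05 (SD, n = 6) in female libraries. In the first set it was -0.02 ± 0.0038 (SD, n = 4), a difference of 0.1379 between the sets. It was flagged because every female library was above 0 and every library of the first set below it. As this choice fixes the separation in advance, no p is given. The part of the depth difference in other results was not tested.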

How the results depend on the processing

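For the 15 main results, 290 of 315 values under the alternatives kept their side of the threshold, stayed within 1 SD or stayed within 1.5 times the count. No called value changed sign, but 8 values of results that missed the threshold did. These were the share difference between sets (0.128 points with a margin of at least 0.5), the depth difference in 3 settings (lowest -0.0239, in the first set alone) and the immediate early gene difference in 4 (lowest -0.15, against PVT1 alone; -0.0348 without female replicate 1). The moves in counts came with the filter, depth, the set, the replicate block, leaving out nuclei with glial UMIs and, between sets, DESeq2. With no filter on low counts 574 genes of 26542 tested (2.16%) were higher and 481 lower in PVT2, 363, 2538, 1194 and 599 differed from PVT1, PVT3, PVT4 and PVT5, and 1 gene (*Grin2a*, named after its value was seen) differed between sets. With nuclei thinned to 5000 UMIs, which left fewer nuclei, 168 of 4356 tested (3.86%) were higher, 114 lower, and 119, 701, 231 and 182 differed from PVT1, PVT3, PVT4 and PVT5; of the 287 and 222 genes 149 and 70 were shared. With the first set alone 451 of 12509 tested were higher, 354 lower and 1059 differed from PVT4, and with female libraries alone (6690 tested) 396 differed from PVT4 and 245 from PVT5. Leaving out nuclei with 3 or more glial UMIs, which kept 1847 of 3684 PVT neurons and 358 of 714 PVT2 nuclei, gave 147 for PVT1 and 429 for PVT4. DESeq2 called 4 genes between sets. The depth difference was 0.114 in female libraries alone (p = 0.03125, exact sign-flip permutation test, n = 6).

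With no replicate block 92 genes differed from PVT1, 425 from PVT4 and 211 from PVT5. Numbers 1 to 4 occur in both sets but across genes the deviations of same-numbered libraries correlated at 0.0569, 0.0228, -0.0253 and 0.0223. Such values show no pairing, but they cannot decide it, since counting error is large in libraries with as few as 21 PVT2 nuclei. As a replicate block the numbers gave a share difference of -3.88 percentage points (p = 0.125, exact sign-flip permutation test, the smallest that 4 pairs allow).

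Leaving out each library in turn gave 244 to 308 higher and 191 to 259 lower genes, 176 to 237, 1196 to 1456, 547 to 738 and 320 to 402 genes against PVT1, PVT3, PVT4 and PVT5, a share of 16.2 to 17.7%, a share difference between sets of -5.61 to -1.31 percentage points, and held-out log2 fold changes of 1.99 to 2.41 (*Col12a1*), 1.52 to 1.81 (*Pde3a*), 3.603 to 3.81 (*St14*) and 1.91 to 2.58 (*Dgkk*). For the 91 genes that the naming rule took, 1918 of 1964 values kept their call, 35 lost it and 11 gained one. A gene that fell under the filter in a setting gave no value there and is not counted. With nuclei thinned to 5000 UMIs 50 genes kept their call, 9 lost it and the rest of the 91 gave no value. With nuclei of 3 or more glial UMIs left out, 64 kept it, 3 lost it and the rest gave no value. The calls lost in at least 1 setting included those of *Cacna2d2*, *Cacnb4*, *Gabrg1*, *Grik4*, *Hcrtr2*, *Htr1f*, *Kcnip2*, *Kcnip4*, *Kcnk10*, *Npas4*, *Pcsk2*, *Pde2a*, *Pdzd2*, *Unc13c* and *Vgf*. The cause of these changes was not tested. One alternative, restricted to the authors' clusters Neurons (1), (2) and (4), was chosen after seeing the data; it gave 295 higher and 247 lower genes.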

Other observations

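A few further genes named in the study's text were read in PVT2 neurons. *Glra3*, a glycine receptor subunit, was at 17.5 ± 5.94 CPM in PVT2 neurons (SD, n = 10), 9.67 CPM in PVT1, 16.5 CPM in PVT5, 37.4 CPM in PVT4 and 48.6 CPM in PVT3. It was higher than in PVT1 in 10 of 10 libraries (log2 difference 0.90, SE 0.21, edgeR adjusted p = 0.0025), with no difference past the threshold from the mean of the others (-0.24, edgeR adjusted p = 0.35). *Glra2*, its relative, was at 68.1 ± 14.9 CPM in PVT2 and 72.1 ± 10.6 CPM in the other PVT neurons pooled (log2 fold change 0.05 relative to the 4 subtypes averaged, edgeR adjusted p = 0.80). *Kcna1*, a voltage-gated potassium channel, was at 15.6 ± 7.66 against 20.2 ± 4.77 CPM and lay just inside the limit of 0.5 (-0.48, edgeR adjusted p = 0.025).

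At 2000 UMIs per nucleus, genes outside the rule differed in how often they were found in oligodendrocytes. *Slc44a5* was found in 18.8 ± 6.22% of PVT2 nuclei, 4.99 ± 1.89% of the other PVT neurons and 1.12 ± 2.19% of oligodendrocytes. *Gpc5* was found in 69.4%, 32.4% and 10.7%, and *Calb1* in 23.9%, 9.13% and 6.49%. *Slit2* was found in 4.90 ± 3.34% of PVT2 nuclei, against 1.26 ± 0.503% of the other PVT neurons and 1.62 ± 1.57% of oligodendrocytes. *Cdh8* was found in 38.3%, 13.7% and 16.7% and *Shroom3* in 23.7%, 10.7% and 14.0%. For *Slit2*, *Cdh8* and *Shroom3* the mean share in oligodendrocytes was thus above that in the other PVT neurons. The gap was smaller than the SD of the oligodendrocyte share over libraries. *Trpm3* was found in 53.1%, 27.5% and 14.8%. Before thinning *Slc44a5* was found in 48.7% of PVT2 nuclei and *Slit2* in 13.7%.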
